A study of Mus musculus with 2 samples.

Results

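The 49 protein-coding genes of the mouse proteasome family were described in the left cerebral cortex. They were picked by symbol alone, as every protein-coding gene named Psm followed by a letter from a to g and a number, and were found among 55536 annotated genes, of which 22015 are protein-coding genes of the nuclear chromosomes. The tissue came from postnatal day 4 female B6CASTF1/J mice, which are the F1 offspring of C57BL/6J crossed with CAST/EiJ, with no treatment and no engineered allele named in the labels. The series held 1 group of 2 total RNA libraries, each from 300 ng of RNA, so no genotype, treatment or time was contrasted. The labels number the females separately as biological replicates but give both the same donor identifier, so whether the libraries differ as animals or only as preparations cannot be told apart, and each p-value here compares only these libraries, whose difference may be technical. The gene tables summed to 29310517 expected reads over annotated genes in replicate 1 and 28844648 in replicate 2. Markers of cortical excitatory neurons were present, with all 5 listed genes at 1 TPM or more in each library and medians of 119.5 and 122.7 TPM in replicates 1 and 2.

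The proteasome is the large protease that degrades proteins tagged with ubiquitin in the cytosol and nucleus. Its barrel-shaped core particle (20S) is built of outer rings of alpha subunits, which gate the entry, and inner rings of beta subunits, of which Psmb5, Psmb6 and Psmb7 carry the proteolytic sites. The regulatory particle (19S) caps the core: its ring of ATPases unfolds the substrate, and its other subunits bind ubiquitin chains and remove them. Immune cells and cells exposed to interferon replace the catalytic beta subunits with Psmb8, Psmb9 and Psmb10, thymic epithelium uses Psmb11, and the testis uses the alpha subunit Psma8. In neurons, proteasomes also take part in axon growth and in remodelling synapses. When proteasomes are impaired, the transcription factor Nfe2l1 raises their genes through the antioxidant response element.

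Before the levels, the promoters of the main exchange pairs are shown, because the genes of each pair stood far apart in RNA level. A RefSeq promoter window, 250 bases before to 50 after the annotated start on GRCm38.p6, was matched by symbol for 41 of the 49 genes. Those with no matched window were Psmb7, Psmb2, Psmb1, Psma8, Psmc3, Psmd3, Psmd7 and Psmg2. The windows of the immune subunits Psmb8 and Psmb9 are each set beside that of the constitutive subunit they replace, and that of the activator gene Psme1 is added. Capitals mark the antioxidant response element core TGACNNNGC or the interferon-stimulated response element core (GAAA, any 2 bases, GAAA), searched on both strands, so the capitals in Psme1 are the reverse complement of the interferon-stimulated core.
Psmb8, chr17:34197945-34198244, plus strand: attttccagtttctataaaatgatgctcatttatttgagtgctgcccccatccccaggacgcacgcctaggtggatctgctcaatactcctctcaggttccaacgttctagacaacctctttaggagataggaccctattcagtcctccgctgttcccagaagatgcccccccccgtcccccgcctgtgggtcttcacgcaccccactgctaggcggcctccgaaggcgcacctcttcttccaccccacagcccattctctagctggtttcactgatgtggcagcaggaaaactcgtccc
Psmb5, chr14:54617946-54618245, minus strand: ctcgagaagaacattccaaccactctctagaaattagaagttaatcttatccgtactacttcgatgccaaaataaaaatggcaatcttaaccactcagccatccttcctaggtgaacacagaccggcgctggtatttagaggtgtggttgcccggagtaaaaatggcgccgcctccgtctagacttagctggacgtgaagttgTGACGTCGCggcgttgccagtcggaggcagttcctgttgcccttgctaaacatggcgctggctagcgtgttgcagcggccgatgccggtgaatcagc
Psmb9, chr17:34187281-34187580, minus strand: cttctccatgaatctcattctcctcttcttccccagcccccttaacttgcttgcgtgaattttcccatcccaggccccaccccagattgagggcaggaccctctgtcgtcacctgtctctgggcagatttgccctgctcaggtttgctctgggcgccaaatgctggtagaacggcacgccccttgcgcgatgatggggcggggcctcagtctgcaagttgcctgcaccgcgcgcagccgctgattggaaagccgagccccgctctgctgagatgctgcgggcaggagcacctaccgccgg
Psmb6, chr11:70525107-70525406, plus strand: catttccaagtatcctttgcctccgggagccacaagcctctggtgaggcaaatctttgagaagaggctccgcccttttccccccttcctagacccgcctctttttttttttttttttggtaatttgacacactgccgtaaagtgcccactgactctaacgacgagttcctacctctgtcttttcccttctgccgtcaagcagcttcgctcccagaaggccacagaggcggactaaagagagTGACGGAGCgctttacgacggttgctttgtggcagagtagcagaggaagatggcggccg
Psme1, chr14:55578244-55578543, plus strand: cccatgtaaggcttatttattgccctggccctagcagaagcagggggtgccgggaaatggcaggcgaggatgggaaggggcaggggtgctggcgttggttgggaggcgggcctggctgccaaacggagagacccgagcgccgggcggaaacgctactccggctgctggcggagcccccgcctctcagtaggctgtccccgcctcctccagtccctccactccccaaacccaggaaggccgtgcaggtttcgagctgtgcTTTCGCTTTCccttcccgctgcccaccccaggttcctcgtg

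The antioxidant core stood at position -47 relative to the annotated start in Psmb5 and at -9 in Psmb6, both on the strand of the gene. Neither core was found in the windows of Psmb8, Psmb9 and Psmb10, which says only that these letters are not in those 300 bases. The windows of Psmb8, Psmb9 and Psme1 lay wholly inside the annotated bounds of their genes. These begin at 34197721 for Psmb8, 55578123 for Psme1 and, on the minus strand, 34187764 for Psmb9. Those of Psmb5 and Psmb6 reached upstream of the gene bounds, so the windows of each pair were not placed alike. Over the family, TGACNNNGC was in 6 of 41 windows (14.6%), those of Psmb5, Psmb6, Psmc6, Psmd12, Psmd9 and Psme4, against 14% of the 27025 genes with a window. The interferon-stimulated core was in 5 of 41 windows (12.2%), those of Psmb3, Psmd4, Psmd9, Psme1 and Psmg4, against 3.99% of genes. Only Psmd9 held both cores. The CCAAT box, searched as CCAAT on both strands, was in 14 of 41 windows (34.1%) against 41.1% of genes. These shares were not tested, and a match to letters describes the window and not a bound site.

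Levels are given as TPM, which scales reads by transcript length and by the library's total, as mean ± SD (n = 2 libraries) where no replicate is named. They come from the tables made from reads aligned to the transcriptome, called the first table below. A second table of the same libraries, described further on, ran 1.51-fold higher at the median, and its levels are given after division by that shift unless stated. Nearly all of the family was transcribed: 44 of the 49 genes (89.8%) reached 1 TPM in each library, against a background of 59.6% of nuclear protein-coding genes. The 49 genes together summed to 2977 TPM in replicate 1 and 2917 TPM in replicate 2, which was 0.591% and 0.570% of the TPM of nuclear protein-coding genes. All 31 constitutive core and 19S subunits were detected, and their levels lay within a 4.44-fold range, from 36.8 TPM for Psma2 to 163 TPM for Psmb4. Their median was 79.3 TPM in replicate 1 and 77.1 TPM in replicate 2, against 16.5 and 17.8 TPM for all detected protein-coding genes. In the second table the range of these 31 genes was wider, from 25.8 TPM for Psma2 to 173 TPM for Psma3.

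**Figure D1:**
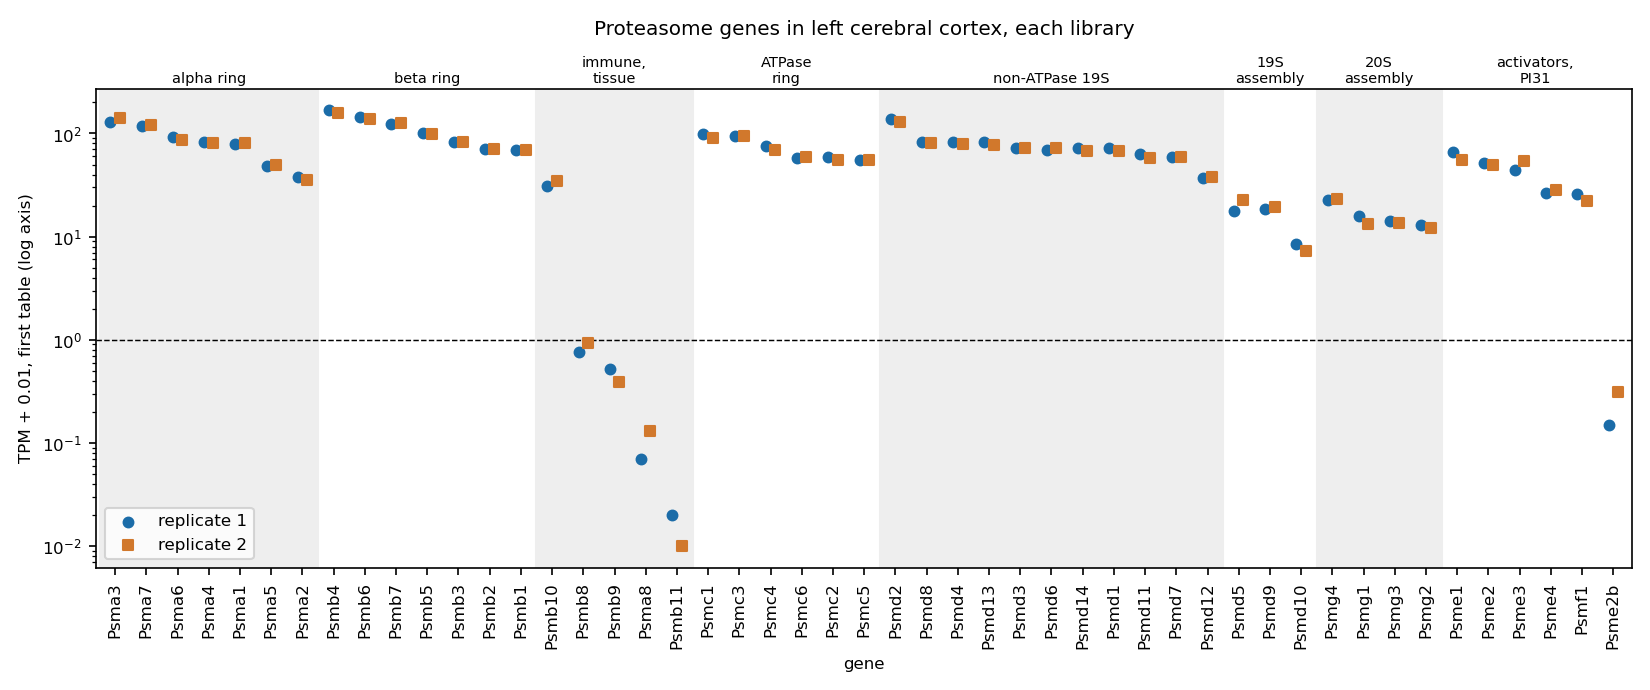
TPM plus 0.01 of each proteasome gene on a log axis, with circles for replicate 1 and squares for replicate 2, grouped by role; the dashed line is 1 TPM. The constitutive core and 19S subunits lie between 36.8 and 163 TPM, the assembly chaperones between 7.79 and 22.9 TPM, and 5 genes below 1 TPM.

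In the alpha ring, the 7 constitutive genes had a median of 81.9 ± 1.32 TPM. Psma3 was the highest, with 129 TPM in replicate 1 and 142 TPM in replicate 2. Psma7 followed with 117 and 121 TPM. Both libraries placed these 2 genes above the other alpha genes, and Psma3 had the largest SD of the 7, 9.19 TPM. Psma6 had 93.4 and 86.0 TPM, and Psma4 and Psma1 lay close together at 81.9 ± 1.32 and 79.7 ± 0.559 TPM. At the low end, Psma5 had 48.4 and 49.2 TPM and Psma2 had 38.2 and 35.3 TPM. Each subunit is present in equal number in the ring, while the RNA of its genes spanned a 3.69-fold range in the first table.

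In the beta ring, the 7 constitutive genes had a median of 99.8 ± 2.40 TPM. Psmb4, a structural subunit without a proteolytic site, was the highest of the family in the first table with 167 TPM in replicate 1 and 159 TPM in replicate 2, and 96.5% of detected protein-coding genes lay below it. Psma3 was the highest in the second table with a mean of 173 TPM, against 138 TPM for Psmb4. The genes of the catalytic subunits came next. Psmb6, the caspase-like site, had 144 and 137 TPM. Psmb7, the trypsin-like site, had 124 and 126 TPM. Psmb5, the chymotrypsin-like site, had 101 and 98.1 TPM. The ranges of these catalytic genes over the libraries did not overlap, so their order was the same in both. In the second table the ranges of Psmb6 and Psmb7 overlapped, at means of 134 and 133 TPM, and Psmb5 at 88.3 TPM lay below Psmb3 at 92.0 TPM. The structural subunits Psmb3, Psmb2 and Psmb1 were lower, at 83.5 ± 0.148, 70.3 ± 0.332 and 69.3 ± 0.877 TPM, and Psmb2 and Psmb1 differed by about the spread between the libraries.

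The genes of the 19S ATPases, which form a ring of 6 different subunits, had the smallest fold range of the 8 classes in the first table. Their median was 65.5 ± 2.31 TPM and their range 1.72-fold. Psmc1 had 99.01 TPM in replicate 1 and 91.3 TPM in replicate 2, and Psmc3 had 93.7 and 95.3 TPM, so the order of these 2 changed between the libraries. Psmc4 had 75.3 and 68.9 TPM. Psmc6, Psmc2 and Psmc5 lay between 54.8 and 58.9 TPM in both libraries. The range of Psmc2 covered those of the other two, while Psmc6 was above Psmc5 in both libraries. The second table put Psmc6 higher, at a mean of 96.3 TPM.

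The 11 non-ATPase genes of the 19S particle had a median of 71.8 ± 0.219 TPM. Psmd2, the scaffold that docks ubiquitin-like domains, stood apart with 138 TPM in replicate 1 and 130 TPM in replicate 2. The means of the other 10 lay between 37.6 and 81.6 TPM. Psmd4, a ubiquitin receptor, had 82.3 and 78.6 TPM. Psmd14, the enzyme that cuts ubiquitin chains from the substrate, had 72.1 and 67.5 TPM. Psmd1, the other large scaffold, had 72.0 and 66.9 TPM. Of the other subunits, Psmd8, Psmd13, Psmd3, Psmd6, Psmd11 and Psmd7 all lay between 58.3 and 83.0 TPM in each library. Psmd12, a lid subunit, was the lowest with 37.4 and 37.7 TPM, below each of the other 10 in both libraries.

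The spread of levels within a class was measured as the SD of log2(TPM + 1) over its genes. It was 0.36 in the ATPase ring, 0.43 in the non-ATPase group, 0.49 in the constitutive beta ring and 0.66 in the alpha ring. The 4 assembly chaperones of the core particle gave 0.34 in replicate 1 and 0.40 in replicate 2. The ATPase ring gave 0.37 and 0.35, so the order of these classes changed between the libraries. Over all 31 constitutive genes it was 0.51, against 1.69 over all detected protein-coding genes. Other multi-subunit complexes gave 0.61 for the 9 genes of the Cop9 signalosome, which removes the ubiquitin-like modifier Nedd8 from ligases, and 0.89 for the 13 genes of the translation factor eIF3. In the second table the spread was 0.45 in the ATPase ring, 0.39 in the non-ATPase group, 0.40 in the constitutive beta ring and 0.89 in the alpha ring. The ATPase ring was thus no longer the lowest of these constitutive classes. No test was made of these spreads.

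The assembly chaperones, which bind precursors and leave before the particle is complete, were all detected and, in the first table, all lower than every constitutive subunit. In the second table Psmd5 at 29.4 TPM and Psmg4 at 27.9 TPM were above the lowest constitutive subunit, Psma2, at 25.8 TPM. For the core particle, Psmg4 had 22.8 TPM in replicate 1 and 23.1 TPM in replicate 2. Its partner Psmg3 had 14.0 and 13.6 TPM, and the other heterodimer, Psmg1 with Psmg2, had 15.9 and 13.2 TPM for Psmg1 and 12.8 and 12.1 TPM for Psmg2. The range of Psmg1 covered that of Psmg3, and Psmg2 was below both in each library. For the 19S base, Psmd5 had 17.9 and 22.8 TPM and Psmd9 had 18.7 and 19.5 TPM, so their order changed between the libraries. Psmd10, also known as gankyrin, was the lowest of the 7 with 8.39 and 7.19 TPM. Over these 7 genes the median was 15.9 TPM in replicate 1 and 13.6 TPM in replicate 2, near that of all detected genes.

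The activators open the core gate without ATP. Psme1 and Psme2, the interferon-inducible subunits of the cytosolic activator, had 65.5 and 55.1 TPM for Psme1 and 51.8 and 49.1 TPM for Psme2 in replicates 1 and 2. Their log2 ratio was 0.25 ± 0.12, higher for Psme1 in both libraries, and 0.73 in the second table. Psme3, the nuclear activator, had 43.9 and 54.1 TPM, and its log2 ratio to Psme1 was -0.30 ± 0.38, so these genes could not be ordered beyond the spread. Psme4, a large single-chain activator of the nucleus, had 26.5 and 28.4 TPM, and its log2 ratio to Psme3 was -0.81 ± 0.14, or -1.44 in the second table. Psmf1, also called PI31, had 25.7 and 22.4 TPM. Both genes of the inducible activator were thus among the 44 detected genes.

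The immune and tissue-specific subunits were the exception in the family, and 4 of these 5 genes were below 1 TPM. Psmb8, which replaces Psmb5, had 0.75 TPM in replicate 1 and 0.92 TPM in replicate 2, from 15 and 17 reads. Its log2 ratio to Psmb5, with 1 TPM added to each level, was -5.78 ± 0.13. Summed reads per effective length put Psmb8 at 0.832% of Psmb5, with an exact (Clopper-Pearson) 95% interval of 0.568% to 1.18%. Psmb9, which replaces Psmb6, had 0.51 and 0.38 TPM from 12 and 6 reads, a log2 ratio of -6.62 ± 0.04 and 0.327% of the level of Psmb6 (95% interval 0.193% to 0.517%). Both libraries placed these genes far below their constitutive partners. These intervals cover counting error only. In whole tissue, fewer cells of a type and less RNA per cell cannot be told apart.

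Psmb10, which replaces Psmb7, behaved otherwise at the gene level. It had 30.7 TPM in replicate 1 and 34.9 TPM in replicate 2, from 373 and 379 reads. Its log2 ratio to Psmb7 was -1.90 ± 0.12, or 26.2% of the level of Psmb7 (95% interval 24.2% to 28.3%). Most of that level was not assigned to its coding transcript, as shown with the transcripts below. Markers of microglia, the resident immune cells of the brain, reached 1 TPM in each library in 4 of 5 cases and summed to 28.7 and 33.7 TPM. The leukocyte marker Ptprc, the fifth, had 0.78 and 1.20 TPM. The part of these cells in the levels of Psmb8, Psmb9 and Psmb10 was not tested.

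Psma8, the testis subunit, had 0.06 and 0.12 TPM from 1 and 2 reads, or 0.0719% of Psma7 (95% interval 0.0148% to 0.210%), against 0.152% of it in the second table. Psmb11, the thymus subunit, had 1 read in replicate 1 and 0 in replicate 2. At this depth, 0 reads allow up to 3, or 0.104 ppm of the reads of replicate 2. Psmb11 thus stood at 0.00818% of Psmb5 (95% interval 0.000207% to 0.0456%) in the first table. The second table gave it more, 18.7 and 30.1 estimated reads in replicates 1 and 2, or 0.308% of Psmb5, which lies outside that interval. Its level therefore depended on the quantification, and it was under 1 TPM in both tables. The gene lies 3.41 kb from Psmb5 on chromosome 14, in the opposite direction. Of 4 testis and thymus markers, 0 were detected. The fifth gene below 1 TPM was Psme2b, a mouse gene nearly identical to Psme2, with 0.14 and 0.30 TPM.

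Some of these genes are neighbours. Psmb8 (chromosome 17, 34197721 to 34201454, plus strand) lies 9.96 kb from Psmb9 (chromosome 17, 34181987 to 34187764, minus strand) on mm10, in the major histocompatibility region, next to the peptide transporter gene Tap1. Tap1 passed the limit with 1.74 and 1.80 TPM and overlaps Psmb9 by 212 bases on the other strand. Psme1 and Psme2 lie 5.91 kb apart on chromosome 14 in opposite directions. The family as a whole was spread over 16 chromosomes, with 9 genes on chromosome 11.

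Genes that work with the proteasome were set beside it. The 8 listed subunits and associated factors that were found all passed 1 TPM, and their median was 60.1 ± 0.463 TPM. Among them were Pomp, which matures the core, at 78.05 ± 1.67 TPM, and the deubiquitinase Usp14 at 73.7 ± 1.38 TPM. Ecpas, an adaptor that binds the 19S particle, had 65.4 ± 7.94 TPM, and Akirin2, which carries proteasomes into the nucleus, had 61.3 ± 0.269 TPM. Sem1, a small lid subunit, was lower at 23.95 ± 0.580 TPM, and the deubiquitinase Uchl5 had 12.3 ± 0.771 TPM. Upstream, all 6 genes for ubiquitin and its activating enzymes were detected. Ubb, which encodes a chain of ubiquitin units, had 829 ± 34.0 TPM. Rps27a, which encodes ubiquitin fused to a ribosomal protein, had 329.6 ± 8.28 TPM. Both were above every proteasome gene. Of the activating enzymes, Uba1 had 299 ± 1.63 TPM and Uba6 had 8.81 ± 0.940 TPM.

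Shuttle factors and the segregase, which bring ubiquitinated proteins to the proteasome, were detected in 10 of 10 cases with a median of 58.0 ± 2.03 TPM. Vcp, the segregase, was the highest with 133 ± 2.28 TPM. It was followed by the shuttles Ubqln2 at 118 ± 0.877 TPM and Rad23b at 110.5 ± 7.30 TPM, while Zfand5 had 70.7 ± 8.05 TPM. The protease Ddi2, which activates Nfe2l1, was the lowest at 12.6 ± 0.948 TPM. Nfe2l1 itself had 57.8 TPM in replicate 1 and 57.3 TPM in replicate 2, against 3.74 and 4.37 TPM for its relative Nfe2l2. Its possible partners were Mafg at 37.0 ± 6.25 TPM and Maff at 0.900 ± 0.0424 TPM. The 7 interferon and peptide-loading genes had a median of 1.77 ± 0.0424 TPM, and 6 of them passed 1 TPM. B2m, the light chain of class I molecules, had 20.9 and 21.2 TPM, while Nlrc5, the activator of class I genes, had 0.40 TPM in each library.

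The libraries were then compared gene by gene, as replicate 1 over replicate 2, on counts scaled by TMM, a factor that balances the bulk of genes. An exact two-sided conditional binomial test was used, with Benjamini-Hochberg adjustment over 18492 genes with at least 20 summed reads. It compares these libraries and not conditions, and since no molecular identifiers are named it covers counting error only. Of the 49 genes, 45 were tested, as Psmb9, Psma8, Psmb11 and Psme2b had fewer reads. Of these 45, 0 differed at an adjusted p under 0.05 with a log2 ratio of 1 or more in either direction. The background was 2.88% of all tested genes, and 115 of the 14688 tested protein-coding genes of the nuclear chromosomes. Without the limit on size, 20 of 45 differed, and all 20 were higher in replicate 1. The background was 25.1% of all tested genes, made up of 13.3% higher in replicate 1 and 11.9% higher in replicate 2. Of the 14688 protein-coding genes, 3700 differed, with 2284 higher in replicate 1 and 1416 higher in replicate 2. Neither background was matched for read count, on which the power of the test depends. At an unadjusted p under 0.05, 26 of 45 differed, against a background of 34.6%.

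The differences were small and mostly in 1 direction. Of the 45 tested genes, 41 were higher in replicate 1, and the median log2 ratio was 0.12. Of all tested protein-coding genes, 56.8% were higher in replicate 1, with a median of 0.03. Among the 20, the largest ratio was that of Psmg1, with 289 and 222 reads in replicates 1 and 2 and a log2 ratio of 0.40 (adjusted p = 0.0110). Psme1 followed with 1102 and 937 reads and 0.26 (adjusted p = 0.000635). Psmd10, with 214 and 175 reads and a log2 ratio of 0.31, did not pass (adjusted p = 0.116). Psmd1 had the smallest p of the family, with 4047 and 3586 reads and a log2 ratio of 0.20 (adjusted p = 7.97e-08). By role, 9 of 11 non-ATPase genes, 4 of 6 ATPase genes, 2 of 7 alpha genes and 2 of 7 constitutive beta genes were among the 20. In the second table these were 10, 5, 4 and 7 genes, and the difference between the classes was not tested. All 31 of these genes had a ratio above 0 (29 of 31 with library totals and 30 of 31 with DESeq2 size factors in place of TMM). The alpha genes were Psma6 and Psma2, and the beta genes were Psmb4 and Psmb6. The remaining 3 of the 20 were Psmg1, Psme1 and Psmf1, and the 4 genes with a ratio below 0 were Psmb8, Psmd5, Psme4 and Psmb10, none of which passed the test.

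**Figure D2:**
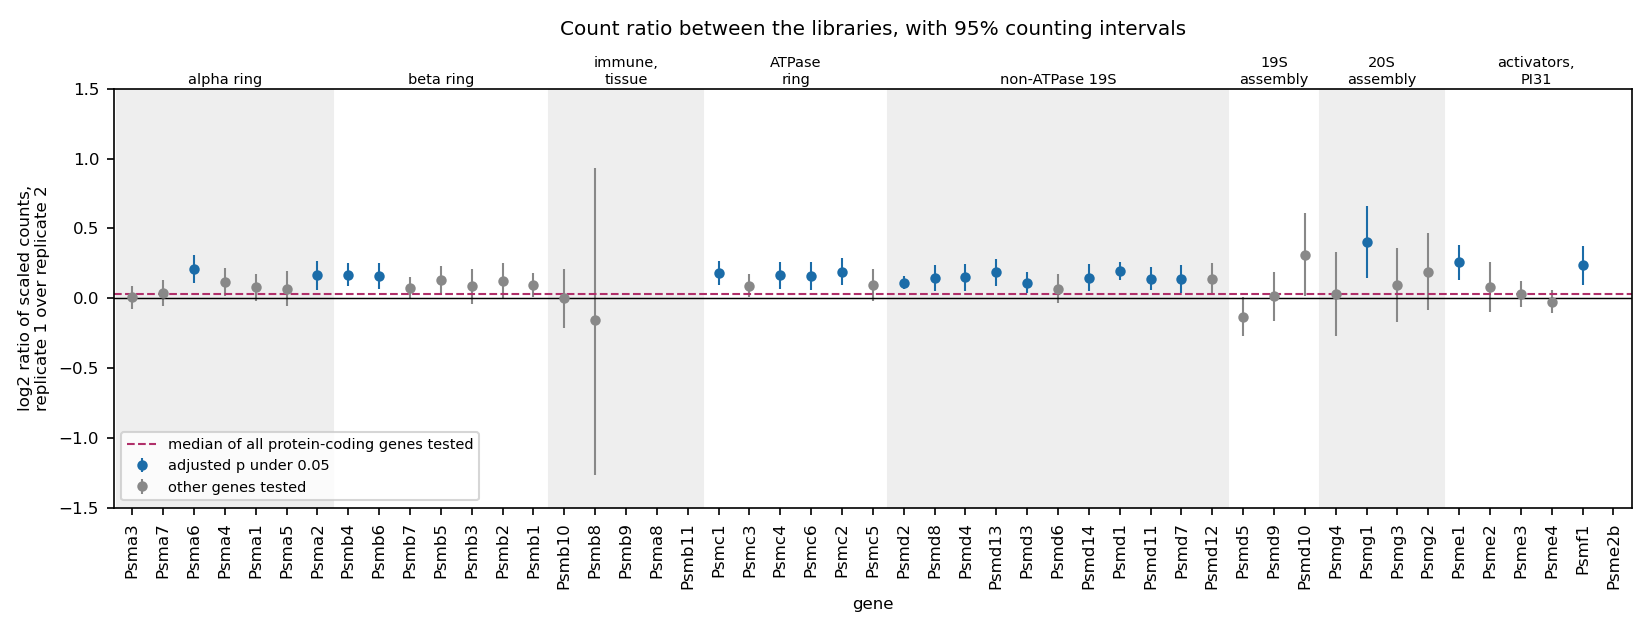
Log2 ratio of TMM-scaled counts, replicate 1 over replicate 2, for each of the 45 tested proteasome genes, with bars for 95% counting intervals; filled blue points have an adjusted p under 0.05, and the dashed line is the median of all tested protein-coding genes (0.03). The 20 blue points all lie above 0, and no gene reaches a log2 ratio of 1.

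That direction depended partly on the scale. With library totals in place of TMM, 11 of 45 genes differed, 10 of them higher in replicate 1 and Psmd5 lower with a log2 ratio of -0.18, and 36 of 45 ratios were above 0. The background at that setting was 23.5% of genes in either direction and 7.84% higher in replicate 1, so the count in either direction was near the background. With DESeq2 size factors 18 of 45 differed, all higher in replicate 1, against 23.9% of genes in either direction and 10.7% higher. With a summed count of at least 100 it was 21 of 44, all higher, against 30.5% and 17.1%. The second table gave 29 of 46, all higher, against 31% and 18.1%. On the TPM scale the median log2 ratio of detected members was 0.03, against -0.06 for all detected protein-coding genes, and 29 of 44 genes were higher in replicate 1. Psme3 shows how the scales can part: its reads were nearly equal at 1919 and 1906, whereas its levels were 43.9 and 54.1 TPM, and the share of its main transcript Psme3-201 was 83.95% and 66.7%. The gene-wise biological coefficient of variation from edgeR, fitted on these 2 libraries, had a median of 0.0738 over the tested members. The common value, fitted once for all genes, was 0.0936 and is not a like measure. A gene-wise median over all genes was not computed, so the members were not ranked by it. The partners of the proteasome were tested in the same way. Of the other subunits and factors, 2 of 8 passed, Usp14 with a log2 ratio of 0.16 and Adrm1, a ubiquitin receptor, with 0.18, both higher in replicate 1. Of the ubiquitin and activating enzyme genes, 5 of 6 were higher in replicate 1 and Uba6 was lower, with -0.19. Of the shuttles, 5 of 10 were higher and Zfand5 was lower, with -0.15. Of the genes for transcriptional control, 0 of 6 were higher and 2 were lower, Mafg with -0.23 and Ngly1, which processes Nfe2l1, with -0.24. Of the interferon and peptide-loading genes, 0 of 7 passed. For comparison, 10 of 13 eIF3 genes and 2 of 9 Cop9 genes were higher in replicate 1, and none of either were lower. Marker lists of cell types and other tissues also moved with the libraries. All 4 markers of astrocytes and radial glia were higher in replicate 1, with log2 ratios from 0.13 to 0.19 and summed levels of 767 TPM in replicate 1 and 721 TPM in replicate 2. Of the inhibitory neuron markers 2 of 3 were higher, and of all neuron markers 2 of 4, while the excitatory neuron markers held 2 higher and 2 lower of 5. Of the 5 microglial markers, 1 passed, Ptprc, which was lower with a log2 ratio of -0.63, and of the 4 endothelial markers 0 passed. The 4 choroid plexus markers summed to 214 TPM in replicate 1 and 3.23 TPM in replicate 2, mostly Ttr, and the 3 blood markers to 327 and 41.7 TPM. The part of these in the proteasome ratios was not tested.

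The same reads had also been quantified a second way by the depositors, directly from the reads against the transcripts, and the gene sums of that second table were set beside the first. Detected genes had 1.51-fold higher TPM in the second table at the median, so each gene was read against that shift, as first over second. Of 44 genes detected in the first table, 0 differed by a log2 of at least 1 in size, against a background of 1.38% of 13052 genes. At a log2 of at least 0.5, 3 of 44 differed, against a background of 8.34%. These were Psmc6 at -0.73 and Psmd5 at -0.53, lower in the first table, and Psma2 at 0.51, higher in the first table. The SD of the relative log2 was 0.24 over the members and 0.34 over all genes. Among the genes below 1 TPM, Psmb11 at -5.77 and Psma8 at -1.04 lay farther from the shift. Psmb8 at -0.11 and Psmb9 at 0.13 lay near it. In TPM as deposited, Psmb8 crossed the detection limit and 45 genes were detected in the second table; after the shift it did not, and 44 were.

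**Figure D3:**
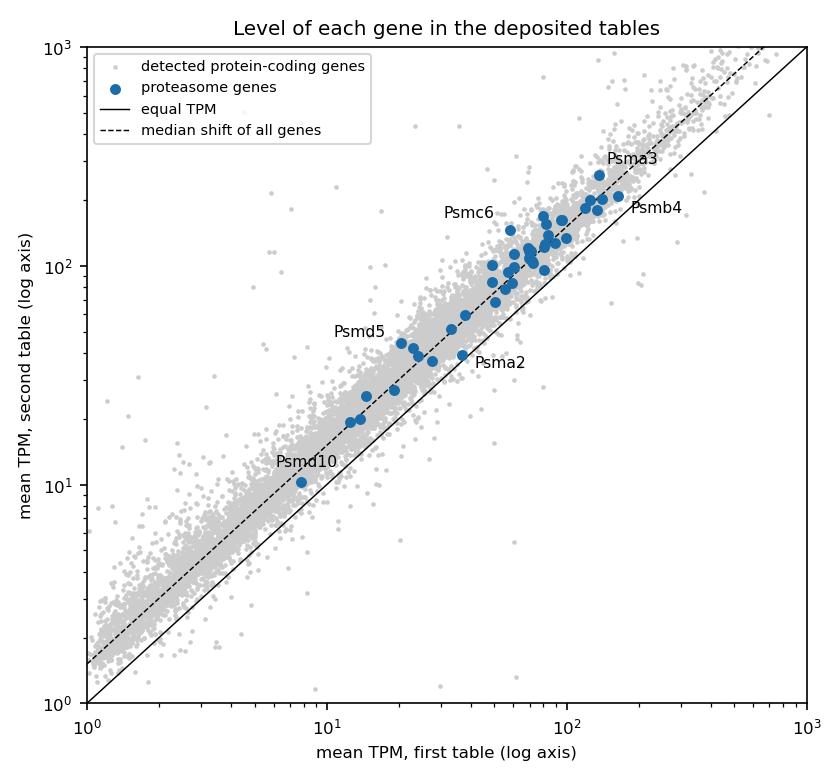
Mean TPM of each gene in the first table (horizontal, log axis) and in the second table (vertical, log axis), with protein-coding genes detected in both in grey and the 44 detected proteasome genes in blue; the dashed line is the median shift. These 44 genes lie near that shift of 1.51-fold, with Psmc6, Psmd5 and Psma2 farthest from it.

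At the transcript level, the 44 detected genes were described by the transcript with the most TPM. It was the same in both libraries for 42 of 44 genes in the first table (background 88.1% of 11875 genes) and for 42 of 44 in the second (background 86.1%). It was the same in both libraries and both tables for 34 of 44 genes (background 66%). It was annotated as protein-coding in both libraries for 42 genes by the first table and 38 by the second. No share over all genes was computed for these counts, so they have no background. The median share of a gene's TPM in protein-coding transcripts was 90.9% in replicate 1 and 90.2% in replicate 2, against 86.8% and 84.8% over all detected genes with several transcripts. In 2 of 44 genes, Psmb10 and Psmd13, the share was under 50%, against a background of 11.8%. In the second table it was under 50% in 6 of 44 genes, near its background of 13.7%. Averaged over the libraries for each gene, the share there had a median of 84.3%, against 83.0% for all genes.

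**Figure D4:**
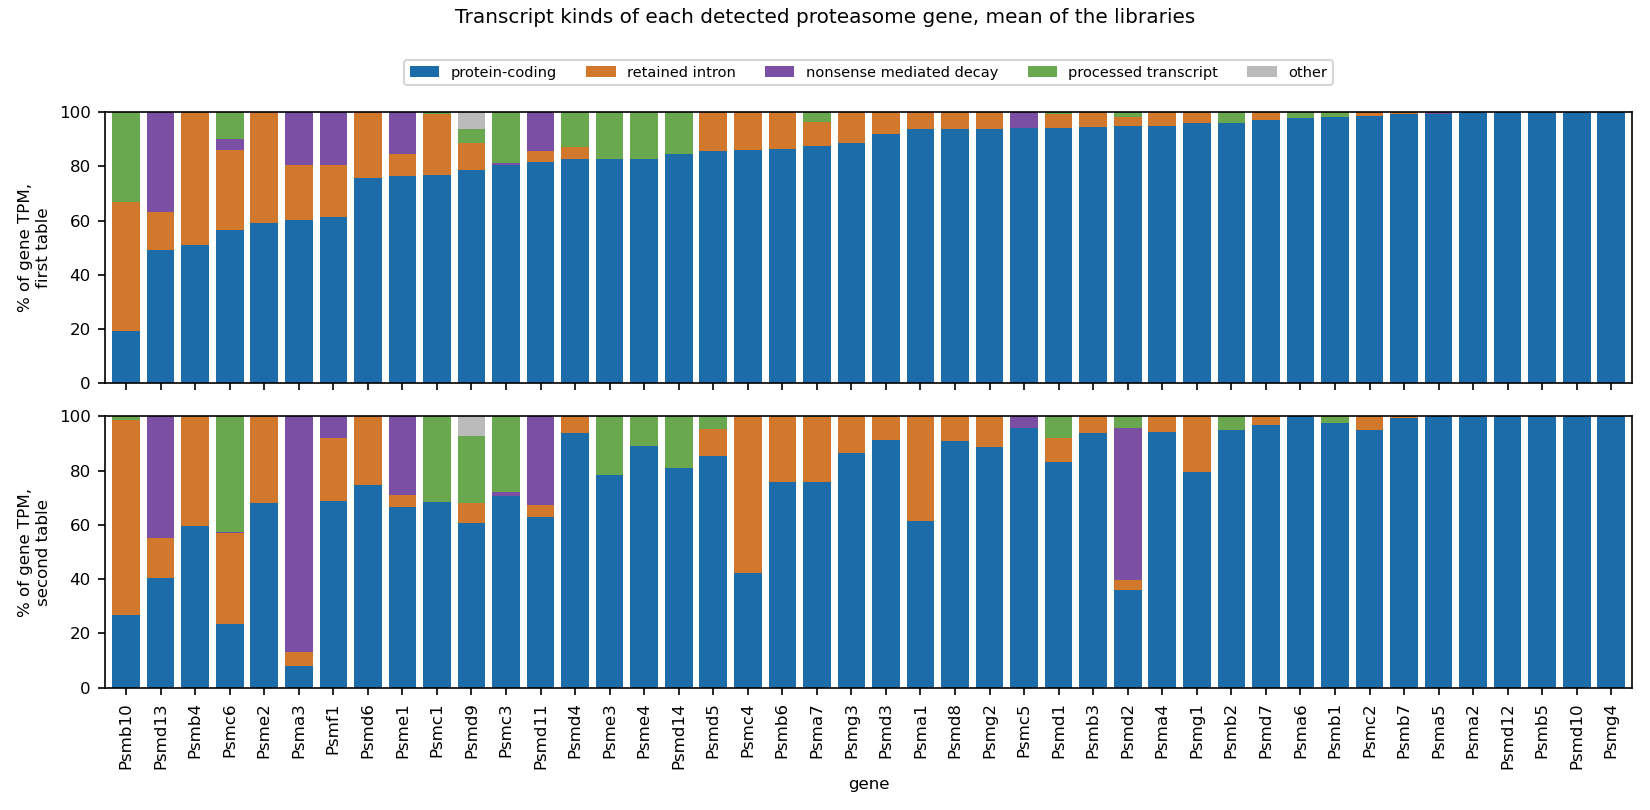
Share of each detected proteasome gene's TPM by annotated transcript kind, mean of the libraries, in the first table (top) and the second table (bottom), ordered by the protein-coding share in the first table. Psmb10 is at the left with 19.3% coding, and Psma3 and Psmd2 change most between the tables.

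Psmb10 had the lowest coding share in the first table, while in the second Psma3 with 7.98% and Psmc6 with 23.3% were below its 26.7%. Its protein-coding transcript Psmb10-201, with 8 exons, took 21.3% of the TPM in replicate 1 and 17.3% in replicate 2, from 154 and 135 reads. The 4-exon processed transcript Psmb10-203 took 25.7% and 40.5%, and the retained-intron transcript Psmb10-205 took 32.2% and 24.0%. Which of these last 2 led changed between the libraries, and the second table gave Psmb10-201 30.7% and 22.6% and Psmb10-203 a mean of 1.37%. The gene lies on chromosome 8, at 105935735 to 105938444 on the minus strand of mm10. In Psmd13, the transcript Psmd13-211, annotated for nonsense-mediated decay, led with 37.0% and 36.4%, ahead of the coding Psmd13-208 with 32.9% and 31.9%. In Psmb4, the coding Psmb4-201 took 51.9% and 49.8% and retained-intron transcripts the rest.

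For 10 of the 44 genes the leading transcript differed between libraries or tables. These were Psma3, Psmb1, Psmb10, Psmc4, Psmc6, Psmd2, Psmd8, Psmd9, Psme2 and Psmg3. In Psmd2, the coding Psmd2-201 took 84.7% and 89.8% in the first table, while the second gave 62.7% and 49.3% to Psmd2-206, which is annotated for nonsense-mediated decay and also has 21 exons. In Psma3, as a mean of the libraries, the first table gave 19.6% to transcripts annotated for nonsense-mediated decay and the second 86.8%, with coding shares of 60.3% and 7.98%. In Psmd8 the lead changed between coding transcripts, as the first table gave Psmd8-202 93.6% and 90.8% and the second gave Psmd8-201 84.6% and 60.3%. In Psmb1 the coding Psmb1-201 led the first table with 77.6% and 83.4% and the coding Psmb1-204 led the second with 95.2% and 92.3%. In Psme2, whose product pairs with that of Psme1, the coding Psme2-201 led the first table with 39.2% and 39.9% and the coding Psme2-208 the second with 72.8% and 63.7%. In Psmc6, the coding Psmc6-201 led the first table with 60.4% and 52.9% and the processed transcript Psmc6-206 the second with 40.9% and 36.6%. In Psmd9, the coding Psmd9-204 led the first table with 45.4% and 38.9% and the coding Psmd9-201 the second with 46.2% and 39.0%. Psmc4-201 and the retained-intron Psmc4-204 took 40.3% and 41.5% in replicate 1 of the second table, and Psmg3-201 and Psmg3-202, which are both coding, took 43.4% and 45.0% in replicate 1 of the first. The gene level of Psmd2 and Psmd8 differed little between the tables, at relative log2 values of 0.17 and -0.03, although their leading transcripts changed.

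Psmd4 gave a clear case of coding variants. Psmd4-202 took 60.0% of the TPM in replicate 1 and 53.2% in replicate 2, and Psmd4-201 took 19.1% and 25.8%. The second table kept that order, with 74.8% and 72.9% for Psmd4-202 against 8.11% and 8.64% for Psmd4-201. Psmd4-201 differs by 9 more coding bases, numbered 764 to 772 from the first base of its start codon, at chr3:95033909-95033917 on the minus strand. The stretch around these bases, from the GENCODE M21 transcripts, is shown because it sets these variants apart. It lies inside the coding sequences, which have 1137 bases in Psmd4-201 and 1128 in Psmd4-202, so its last letters are not the stop codon. Capitals mark the added bases in Psmd4-201, and the coding bases before and after them are the same in both.
Psmd4-202: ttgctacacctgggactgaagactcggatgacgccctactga
Psmd4-201: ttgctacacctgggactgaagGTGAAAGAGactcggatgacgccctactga

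Near-identical copies and overlapping genes limit some of these values. Copies were pseudogenes or genes with at least 90% identity over at least 300 bases, and at least 50% of the coding sequence. They were found for 15 of the 49 genes, 30 copies in all, of which 28 are annotated as pseudogenes and 8 averaged at least 10 reads. The copies that are not pseudogenes are Psme2 and Psme2b, family members that count as copies of each other, and Psme2 is among those 8. Among the pseudogenes the highest was Gm13835, identical to Psma3 over 685 bases, to which the first table gave 28.6 and 9.12 TPM in replicates 1 and 2. The second table listed it at 0. Reads of Psma3 and Gm13835 therefore cannot be told apart with certainty, and the deposited posterior SD of the Psma3 count was 67.1 and 32.0 reads. Gm3375, a copy of Psmb5 with 98.9% identity, had 11.6 and 9.16 TPM. Gm8394, a copy of Psma5, had 8.83 and 7.98 TPM. AC114990.1, a copy of Psmb3, had 11.6 and 9.13 TPM. Psme2b is 99.4% identical to Psme2 over 794 bases, and its posterior SD was 1.90 and 2.36 reads beside counts of 1.95 and 4.05 reads. The second table listed it at 0, so reads of Psme2 and Psme2b cannot be told apart at that level. In Psmd13, the pseudogene Gm15542 lies on the same strand within the gene and had 28.1 and 27.9 TPM. Psmb7 overlaps Nek6, and Psmc3 overlaps Slc39a13, on the other strand. Whether the counting used strand is not given in the sources used here.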

How the data were processed

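Total RNA libraries of left cerebral cortex were compared with each other within 1 group, with replicate numbers taken from the labels. The build (mm10) and annotation (GENCODE M21) come from the deposited file descriptions, as does the origin of the first table, reads aligned to transcripts. The names and versions of aligner and quantifiers were not given in the sources used here. Its expected counts, as deposited by the authors per the file headers, split reads shared between features, and the column names are those of RSEM. For the second table the depositors quantified the reads without that alignment, and its deposited estimated counts have the column names of kallisto. The TPM values, as deposited by the authors, are scaled by effective length and include spike-ins. The deposited percent of a transcript is its share of the gene's TPM. The deposited posterior SD of a count was used as a measure of shared reads. Variants of CAST/EiJ were not modelled here, and a read that spans one may align less well.

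Of the counts in the gene tables, 0.330% and 0.346% in replicates 1 and 2 belonged to entries that are not annotated genes and stayed out of totals and tests. Genes were matched by gene identifier. A gene was detected where each library had 1 TPM or more. Pair ratios are log2 with a pseudocount of 1, which understates the ratio of low genes. Between libraries, expected counts were rounded to whole numbers and compared by an exact conditional binomial test with TMM-scaled library sizes (edgeR 4.0.16, R 4.3.3), with calls at adjusted p below 0.05, and separately with the added limit of 1 on the size of the log2 ratio. Level percentages of pairs use summed counts per mean effective length, with exact 95% intervals. The comparison was tried on simulated counts that held counting error only. That trial cannot show how the test behaves where libraries differ beyond counting. Alternatives were total counts, DESeq2 1.42.0 size factors, other minimum counts (1 and 100), a pseudocount of 0.1, the second table, TPM limits of 0.1 and 5, and each library alone. Python 3.11.15, numpy 2.4.6, pandas 2.3.3, scipy 1.17.1 and matplotlib 3.10.9 were used. Copies were sought among annotated transcripts by sequence alignment.

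All 49 genes are accounted for. Of the listed partner genes, Paaf1 matched no annotated symbol. Named besides them were the 4 highest and 2 lowest genes of each pathway list, genes that overlap or copy a proteasome gene, and markers beside a result; some genes that this rule picks are not reported here. The proteasome genes, lists and pairs were chosen with earlier results of these data known.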

Additional observations from a re-analysis of the deposited data

How the results depend on the processing

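The values that moved by more than the spread between the libraries did so mostly with the second table, and the cause was not tested. Read against the median shift, its class medians were 103 TPM for the alpha ring, 92.0 TPM for the constitutive beta ring and 82.0 TPM for the ATPase ring. Its SDs of log2 levels were 0.89, 0.40 and 0.45 for these classes and 0.39 for the non-ATPase genes. Its median coding share, taken in each library and then averaged, was 83.9%, against 90.5% in the first table. Its log2 ratios were -6.98 for Psmb9 over Psmb6, -6.58 for Psmb11 over Psmb5, -7.19 for Psma8 over Psma7, 0.73 for Psme1 over Psme2, -1.44 for Psme4 over Psme3 and -6.11 for Psme2b over Psme2. A pseudocount of 0.1 lowered the ratios of genes near 0, since less is added to a small level: -6.74 for Psmb8 over Psmb5, -8.02 for Psmb9 over Psmb6, -9.90 for Psmb11 over Psmb5, -9.31 for Psma8 over Psma7 and -7.35 for Psme2b over Psme2. The added pseudocount damps the change of Psmb11 between the tables, whose level was 0.00818% of Psmb5 in the first and 0.308% in the second. No ratio changed sign. The count of genes that differ between the libraries was 20 as reported (background 25.1%) and 11 with total counts (23.5%). It was 18 with DESeq2 size factors (23.9%), 21 with a summed count of at least 100 (30.5%) and 29 in the second table (31%). In each of these settings 0 proteasome genes passed the limit on size. Of all 18492 tested genes, 533 passed that limit as reported, 599 with total counts and 550 with DESeq2 size factors. With a summed count of at least 100 it was 188 of 14439 genes, and 690 of 20324 passed it in the second table. At an unadjusted p under 0.05, 26 of 45 proteasome genes differed as reported, against 34.6% of all genes. Over the other settings 19 to 31 differed, and no unadjusted background was computed for those. Each library alone gave 44 detected genes, and its other values lie within 1 SD of the mean of 2 by construction. Limits of 0.1 and 5 TPM gave 47 and 44 detected genes. No paired analysis was possible because the series holds 1 group. With 2 libraries, an SD has little precision. Depth limits Psmb8, Psmb9, Psma8, Psmb11 and Psme2b most, since in the first table each has at most 17 reads in a library.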
